A study of Mus musculus with 4 samples.

Results

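The Fhl, Csrp and Pdlim genes encode actin-associated proteins that carry LIM domains, and 10 of them were chosen by gene symbol (Fhl1, Fhl2, Fhl3, Csrp1, Csrp2, Pdlim1, Pdlim3, Pdlim4, Pdlim5 and Pdlim7) from the 21862 genes listed once in each library. The rule uses no measured value, but the genes were picked with earlier results of these data known. All 10 were found, and 9 of them had an FPKM (reads per length of transcript and per depth of the library) above 2 in all 4 libraries, the minimum the study set for its stiffness comparison, as did 10489 genes in all. Pdlim3 was below this minimum in every library. RNA was sequenced from N31 NPCs, a mouse neural progenitor cell line made from iPSCs that carry Dox-inducible reprogramming factors, grown in medium lacking EGF and bFGF on matrices of 0.5 or 12 kPa laid over collagen-coated dishes. The groups were N31 NPCs without the hairpin (control) on 0.5 kPa, control on 12 kPa, and N31 NPCs expressing the short hairpin RNA shSrf#1 against Srf (Srf-knockdown NPCs) on 0.5 kPa and on 12 kPa. All 4 groups share the line of origin, which derives from EB5 ESCs with a blasticidin resistance gene in the Oct4 locus, and whether the control cells carried an empty vector is not given in the sources used here. Each group is 1 library of 1 line with 1 hairpin, so none of the differences below could be checked against replicates or given a p-value. In bulk RNA, fewer cells expressing a gene and less of its RNA per cell cannot be told apart.

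A LIM domain is a zinc-binding module that holds proteins together rather than binding DNA in this class of proteins. Fhl proteins consist almost wholly of LIM domains and shuttle between focal adhesions, sarcomeres and the nucleus. Csrp proteins carry a pair of LIM domains and bind α-actinin and zyxin on actin bundles, and Pdlim proteins join an N-terminal PDZ domain, which binds α-actinin, to LIM domains at the other end. Many genes of these families are best known from muscle. Srf, with its cofactor Mkl1 that is released when G-actin falls, activates cytoskeletal and muscle genes through a promoter element called the CArG box.

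The libraries held about 24100000 to 62300000 reads by an estimate from the step that 1 read makes in low values, and the Srf-knockdown libraries were the deeper ones. The errors given below with ± are standard errors of a log2 ratio from counting reads at these depths, and they leave out variation between cultures and library preparations. The targeted gene, Srf, stood at an FPKM of 34.4 (0.5 kPa) and 35.6 (12 kPa) without the hairpin and of 16.2 and 17.4 with it, lower in both hairpin libraries. Of 13 NPC markers, 7 or 8 were above an FPKM of 2 in each library, among them Nes, Sox2 and Pax6, and Sox1, Hes5 and Olig2 were listed at 0 in all 4. The summed FPKM of the 13 was 1585 to 1804 in control NPCs and 2450 to 2470 in Srf-knockdown NPCs. Their median FPKM was only 2.62 to 3.46 in control and 3.74 to 3.91 in Srf-knockdown NPCs. The sums thus rest on the markers far above the median. Of 12 skeletal and cardiac muscle markers only Des, Tnnt2 and Tnni3 were above 2, and Myod1 and Myf5 were listed at 0 in all 4 libraries. Of 10 smooth muscle markers, 8 were above 2 in each control library and 5 in each Srf-knockdown library. Their summed FPKM was 711.2 to 780.9 in control NPCs and 68.4 to 95.6 in Srf-knockdown NPCs. Myocd, the muscle-restricted cofactor of Srf, was listed at 0 in both 0.5 kPa libraries. Of the 10 genes, 3 (Acta2, Tagln and Cnn1) are named by the study as known Srf targets. Whether others of the 10 are Srf targets too was not examined, so this list is not independent of Srf. Of 10 mesenchymal markers 9 or 10 were above 2, with sums of 2729 to 2893 in all libraries and a median FPKM of 73.8 to 74.5 in control and of 48.3 to 53.7 in Srf-knockdown NPCs. The part of cell composition in the values below was not tested.

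The sequences before the transcription start sites are shown first for the members in which they hold a CArG box, and for Csrp1, whose knockdown ratio was the lowest of the 9 members after that of Fhl1 and holds none. The sequences are the 250 bases before each start site in the RefSeq promoter set used, on GRCm38.p6 (the build also called mm10). They are read 5′ to 3′ on the strand of the gene, with the CArG box in capitals. The box was searched by its usual consensus on both strands. It occurred in 1.47% of 32851 such windows of the genome, and in the windows of 1.32% of 8257 genes above the minimum. Of the 9 members with an entry, Fhl1 and Fhl2 had a match. Csrp2 had no entry.
Fhl1, first start site, + strand, chrX:56779433-56779682, within the span of the gene: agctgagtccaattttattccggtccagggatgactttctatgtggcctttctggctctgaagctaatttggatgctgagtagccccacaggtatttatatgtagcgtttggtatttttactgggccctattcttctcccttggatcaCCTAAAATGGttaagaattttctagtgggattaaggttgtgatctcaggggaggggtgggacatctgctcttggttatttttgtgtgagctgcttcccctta
Fhl2, first start site, − strand, chr1:43196762-43197011, within the span of the gene: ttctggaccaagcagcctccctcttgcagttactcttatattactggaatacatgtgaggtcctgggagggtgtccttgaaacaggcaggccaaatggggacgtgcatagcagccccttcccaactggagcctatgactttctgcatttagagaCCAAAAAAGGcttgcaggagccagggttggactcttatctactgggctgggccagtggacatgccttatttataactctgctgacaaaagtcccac
Fhl2, second start site, − strand, chr1:43163962-43164211, within the span of the gene: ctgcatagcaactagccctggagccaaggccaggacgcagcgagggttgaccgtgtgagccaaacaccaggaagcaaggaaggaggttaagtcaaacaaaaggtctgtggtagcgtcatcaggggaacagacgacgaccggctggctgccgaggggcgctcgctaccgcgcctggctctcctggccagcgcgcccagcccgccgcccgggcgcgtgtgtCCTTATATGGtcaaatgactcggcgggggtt
Csrp1, first start site, + strand, chr1:135719813-135720062, directly upstream of the annotated gene: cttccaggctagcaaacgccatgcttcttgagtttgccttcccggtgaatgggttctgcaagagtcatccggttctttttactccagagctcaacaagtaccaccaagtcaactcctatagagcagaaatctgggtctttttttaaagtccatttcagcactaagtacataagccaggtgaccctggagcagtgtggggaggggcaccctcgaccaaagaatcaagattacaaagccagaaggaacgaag
Csrp1, second start site, + strand, chr1:135728917-135729166, within the span of the gene: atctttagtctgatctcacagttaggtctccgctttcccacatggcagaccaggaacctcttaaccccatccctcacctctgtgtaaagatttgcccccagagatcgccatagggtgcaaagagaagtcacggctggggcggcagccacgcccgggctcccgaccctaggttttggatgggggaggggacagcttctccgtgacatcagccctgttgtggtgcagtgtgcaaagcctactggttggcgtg
The box began 102 bases before the first start site of Fhl1, and the second Fhl1 start site had none. In Fhl2 it began 96 bases before the first start site and 31 bases before the second. The annotated spans of Fhl1 and Fhl2 begin farther upstream than these sites, and no window there was searched. No window of Fhl3, Csrp1, Pdlim1, Pdlim3, Pdlim4, Pdlim5 or Pdlim7 held a match, which says only that these letters are not in these 250 bases. Of the known targets named by the study, Myl9 had a match, and Acta2 and Cnn1 had none in the same window. Tagln, also named, had no entry. Ldb3, a PDZ-LIM gene of the same family as Pdlim5 and Pdlim7, had 1 match, which lay in the overlapping windows of both of its start sites.

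The members differed widely in level. In the control library from the 0.5 kPa matrix the order by FPKM was Csrp1 (299.9), Pdlim7 (230.5), Csrp2 (164.2), Pdlim1 (121.7), Pdlim5 (75.6), Fhl3 (54.2), Fhl2 (53.8), Pdlim4 (20.1), Fhl1 (15.0) and Pdlim3 (0.497). Only Fhl3 and Fhl2 lay within the counting error of each other. Csrp1 ranked 325th among the 10489 genes in this library and Fhl1 ranked 6531st. On the 12 kPa matrix the first 5 kept their order, and Pdlim4 (14.2) and Fhl1 (13.5) were no longer separated by the counting error. In Srf-knockdown NPCs Csrp2 stood first on both matrices, followed by Pdlim7 and Csrp1. Fhl1 was the lowest of the 9 members in both of these libraries and Pdlim4 the next lowest. Pdlim1 and Fhl3 on the 0.5 kPa matrix (54.5 and 52.0), and Fhl2 and Pdlim5 on the 12 kPa matrix (42.1 and 42.0), were within the counting error of each other.

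**Figure D1:**
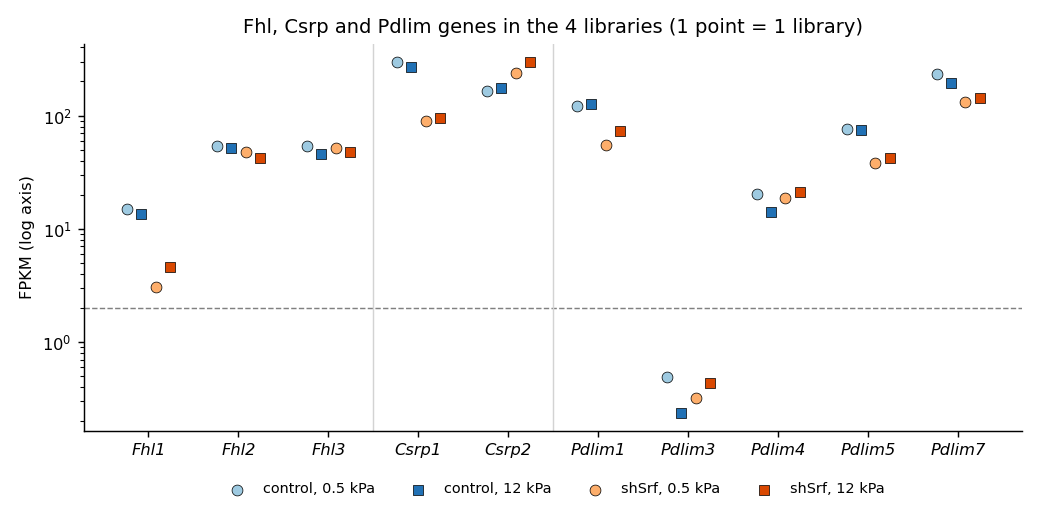
FPKM (log axis) of each Fhl, Csrp and Pdlim gene, with 1 point for each of the 4 libraries. Circles are the 0.5 kPa and squares the 12 kPa matrix, blue is control and orange Srf knockdown, and the dashed line is the minimum of 2. Csrp2 is the only gene with both orange points above both blue points, and Pdlim3 lies below the line in all libraries.

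The design allows a comparison of Srf-knockdown with control NPCs at equal stiffness. Where both knockdown values lie below or above both control values, this is said for each gene as a description. The share of all genes separated in this way was not counted. Of all genes above the minimum, 28.8% were lower and 30.3% higher past 1.1-fold at both stiffnesses. The largest ratios among the Fhl genes were those of Fhl1 (chromosome X, 56731209 to 56793346), a protein of the sarcomere and of stress fibres that is mutated in inherited myopathies. Its FPKM was 15.0 (0.5 kPa) and 13.5 (12 kPa) in control cells, and 3.07 and 4.57, in the same order of matrices, in knockdown cells. Both knockdown values lay below both control values. The log2 ratio to control was -2.29 ± 0.13 at 0.5 kPa, where Fhl1 had the 22nd lowest ratio of the 10489 genes, and -1.56 ± 0.11 at 12 kPa, where it had the 56th lowest. Fhl1 was thus 4.89-fold and 2.94-fold lower than in control cells.

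Fhl2 (chromosome 1, 43123071 to 43198343) encodes an integrin-binding adaptor that also acts as a transcriptional cofactor and can bind Srf. Its FPKM was 53.8 and 51.6 in control and 48.0 and 42.1 in knockdown cells. The groups did not overlap, but the distance was small, with log2 ratios of -0.17 ± 0.04 and -0.29 ± 0.04. Fhl2, with a CArG box at both start sites printed above, was at 89.1% and 81.7% of its control level. Fhl3 (chromosome 4, 124695964 to 124708611), an actin-binding family member, had 54.2 and 45.5 in control and 52.0 and 47.5 in knockdown cells. These values overlapped, and the log2 ratios of -0.06 ± 0.05 and 0.06 ± 0.05 did not differ from 0 by more than 1.96 counting errors. After centring on genes of like GC content the Fhl3 ratios were -0.33 and -0.34, so the direction for Fhl3 rests on this choice.

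The 2 Csrp genes went in opposite directions. Csrp1 (chromosome 1, 135720063 to 135752229), a smooth muscle protein that binds α-actinin and zyxin, stood at 299.9 and 267.6 in control and at 89.2 and 94.5 in knockdown cells. Its log2 ratios were -1.75 ± 0.02 and -1.50 ± 0.02, the 61st and 69th lowest of all genes. Csrp2 (chromosome 10, 110920176 to 110939514), the paralog best known from vascular smooth muscle, had 164.2 and 174.5 in control and 237.2 and 299.4 in knockdown cells. Both knockdown values of Csrp2 were above both control values, and the log2 ratios were 0.53 ± 0.03 and 0.78 ± 0.03, or 1.44-fold and 1.72-fold higher. Csrp2 at 12 kPa in knockdown cells thus came close to the level that Csrp1 had in control cells at 0.5 kPa.

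Among the Pdlim genes, those chosen from the ALP group (Pdlim1, Pdlim3 and Pdlim4) differed from each other. Pdlim1 (chromosome 19, 40222239 to 40271616), which binds α-actinin and palladin on stress fibres, had 121.7 and 126.6 in control and 54.5 and 72.5 in knockdown cells, with both knockdown values below both control values. Its log2 ratios were -1.16 ± 0.03 and -0.80 ± 0.03. Pdlim4 (chromosome 11, 54054928 to 54069032), also known as RIL and found on stress fibres, had 20.1 and 14.2 in control and 18.9 and 21.1 in knockdown cells. Its values overlapped. The ratio was -0.09 ± 0.09 at 0.5 kPa and 0.57 ± 0.10 at 12 kPa, and the control library from 12 kPa was the one in which Pdlim4 was lowest. Pdlim3 (chromosome 8, 45885487 to 45919635), the α-actinin-associated LIM protein of the muscle Z-disc, had 0.497 and 0.236 in control and 0.321 and 0.435 in knockdown cells. These rest on an estimated 7.85 to 37.3 reads, and its ratios of -0.63 ± 0.46 and 0.88 ± 0.57 were within 1.96 counting errors of 0. A difference in Pdlim3 was not detectable at this depth.

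The Enigma group carries several LIM domains after the PDZ domain, and both of its genes among those chosen were lower in Srf-knockdown NPCs. Their relative Ldb3 is described further below. Pdlim5 (chromosome 3, 142239585 to 142395719), which tethers protein kinase C isoforms to the Z-disc, had 75.6 and 74.7 in control and 37.8 and 42.0 in knockdown cells, with log2 ratios of -1.0006 ± 0.04 and -0.83 ± 0.04. Pdlim7 (chromosome 13, 55497487 to 55513473), known as Enigma or LMP-1 and involved in bone formation, had 230.5 and 193.9 in control and 132.6 and 144.2 in knockdown cells, with log2 ratios of -0.80 ± 0.03 and -0.43 ± 0.03. In both genes the knockdown values lay below both control values.

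In counts, 6 of the 9 members were lower past 1.1-fold, the fold the study used, at 0.5 kPa and the same 6 at 12 kPa (Fhl1, Fhl2, Csrp1, Pdlim1, Pdlim5 and Pdlim7). Of all genes above the minimum, 35.7% were lower past this fold at 0.5 kPa, 35.9% at 12 kPa and 28.8% at both. Csrp2 was higher past 1.1-fold at both stiffnesses, as were 30.3% of all genes, and with Pdlim4 at 12 kPa this made 1 and 2 members, beside 37.4% and 37.6% of all genes. So many genes passed 1.1-fold that 2-fold separates better. At 0.5 kPa 4 members were lower past 2-fold (Fhl1, Csrp1, Pdlim1 and, just past it, Pdlim5), beside 2.86% of all genes, and at 12 kPa 2 were (Fhl1 and Csrp1), beside 2.22%. None was higher past 2-fold, beside 2.45% of all genes at 0.5 kPa and 2.74% at 12 kPa. The median log2 ratio of the 9 members was -0.80 at 0.5 kPa and -0.43 at 12 kPa, and that of all 10489 genes was 0.0106 and 0.0098. The smooth muscle markers given above were lower in the same libraries, and their part in these ratios was not tested. The NPC marker sums, which rest on the markers far above the median, were higher in these libraries. Of the mesenchymal markers the median was lower while the sums overlapped. The part of the NPC and mesenchymal markers was not tested either.

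**Figure D2:**
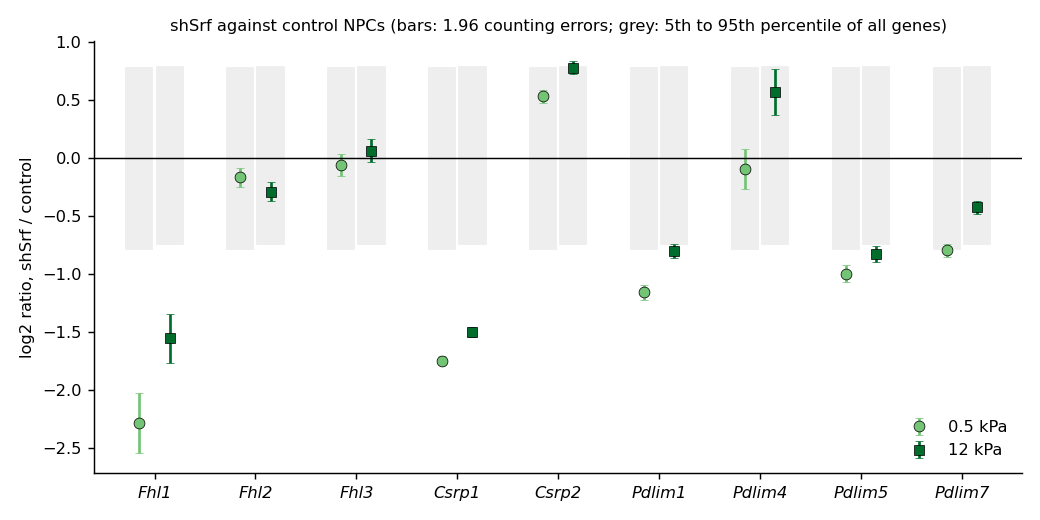
Knockdown ratio (log2, Srf-knockdown over control NPCs) of the 9 members above the minimum, with circles for 0.5 kPa and squares for 12 kPa. Bars are 1.96 counting errors and grey boxes span the 5th to 95th percentile of all 10489 genes (-0.79 to 0.77 at 0.5 kPa and -0.74 to 0.79 at 12 kPa). Fhl1, Csrp1, Pdlim1 and Pdlim5 lie below the grey box on both matrices, and Pdlim7 just below it at 0.5 kPa.

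Since paralogs went different ways, the shares of the members within each family were compared by FPKM, which is per length. Csrp1 made up 64.6% and 60.5% of the summed FPKM of Csrp1 and Csrp2 in control NPCs on 0.5 and 12 kPa, and 27.3% and 24.0% in Srf-knockdown NPCs. The sum itself was 464.1 and 442.1 in control and 326.4 and 393.8 in knockdown cells, so the sum differed less between the groups than Csrp1 itself did. Fhl1 made up 12.2% of the 3 Fhl genes in each control library, and 2.98% and 4.85% in the knockdown libraries. Fhl2 and Fhl3 each held between 41.1% and 50.5% in all 4 libraries. Among the 5 Pdlim members, which leave out Pdlim2, Pdlim7 held 47.3% to 54.3% throughout, while their sum was 448.5 and 409.6 in control and 244.1 and 280.2 in knockdown cells. Pdlim4 had a larger share in knockdown cells (7.74% and 7.51%) than in control cells (4.49% and 3.46%). This share is of a sum that was lower in knockdown cells, and the FPKM of Pdlim4 itself was at 93.7% and 149% of control.

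**Figure D3:**
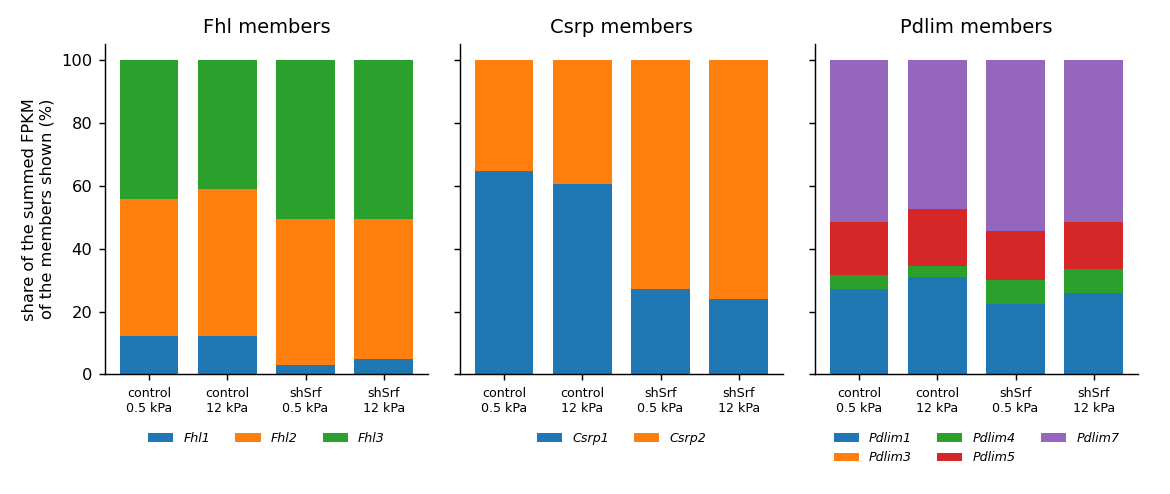
Share (%) that each gene held of the summed FPKM of the Fhl, Csrp and Pdlim members in the 4 libraries; other genes of these families, such as Pdlim2, are not included. The leading Csrp member is Csrp1 in control and Csrp2 in Srf-knockdown NPCs, and Pdlim3 (at most 0.155%) is too thin to be seen.

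The study also compared the 12 kPa with the 0.5 kPa matrix within each cell population, asking whether matrix stiffness helps to maintain the expression of genes specific to the cell type. It judged Srf activity to rise with stiffness from the expression, relative to Gapdh, of Srf targets such as Acta2. Here the control log2 ratios of 12 to 0.5 kPa were 0.0048 for Acta2, 0.14 for Myl9, -0.30 for Tagln and -0.32 for Cnn1. The Srf-knockdown ratios were 0.41, 0.42, 0.94 and 0.73 in the same order, with Cnn1 under the minimum there. In control NPCs the median log2 ratio of 12 to 0.5 kPa was -0.16 for the 9 members and 0.0030 for all genes. The ratio of 12 to 0.5 kPa farthest from 0 among the 9 was that of Pdlim4, on the log2 scale, -0.51 ± 0.11 (FPKM 20.1 and 14.2), the 154th lowest of all genes. Fhl3 and Pdlim7 had -0.25 ± 0.06 and -0.25 ± 0.03, and Csrp1 and Fhl1 had -0.16 ± 0.02 and -0.16 ± 0.10. Of these, the ratio of Fhl1 was within 1.96 counting errors of 0. Fhl2, Csrp2, Pdlim1 and Pdlim5 had ratios between -0.06 and 0.09. Thus 5 of 9 members were lower past 1.1-fold on the stiffer matrix, beside 16.9% of all genes, and 0 were higher, beside 17.9%.

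In Srf-knockdown NPCs the median log2 ratio of 12 to 0.5 kPa was 0.15 for the 9 members and 0.0064 for all genes. Of the 9 members 7 had positive ratios, and the share of all genes with a positive ratio was not counted. The summed FPKM of the smooth muscle markers was 68.4 and 95.6 in the same 2 libraries, and their part in the member ratios was not tested. Fhl1 had an FPKM of 3.07 and 4.57 and a log2 ratio of 0.57 ± 0.14, the 54th highest of all genes, although it rests on an estimated 157 and 324 reads. Pdlim1 had 0.41 ± 0.03 and Csrp2 0.34 ± 0.02, the 212th and 369th highest. Pdlim4 had 0.16 ± 0.07, Pdlim5 0.15 ± 0.04, Pdlim7 0.12 ± 0.03 and Csrp1 0.08 ± 0.02. Only the remaining Fhl genes had negative ratios, Fhl2 with -0.19 ± 0.04 and Fhl3 with -0.13 ± 0.04. Past 1.1-fold, 5 members were higher, beside 17.6% of all genes, and Fhl2 alone was lower, beside 13.0%. After centring on genes of like GC content the ratio of Pdlim4 was 0.07, within 1.1-fold, and that of Pdlim7 was 0.011, which left 4 members higher and 2 lower (Fhl2 and Fhl3).

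The difference between the populations, the ratio in Srf-knockdown minus that in control NPCs, was positive for 8 of the 9 members. The share of all genes with a positive difference was not counted. Among the members the difference was largest for Fhl1 (0.73 ± 0.17) and Pdlim4 (0.66 ± 0.13), followed by Pdlim7 (0.37 ± 0.04), Pdlim1 (0.36 ± 0.04), Csrp1 and Csrp2 (0.25 ± 0.03 and 0.25 ± 0.04), Pdlim5 (0.17 ± 0.05) and Fhl3 (0.12 ± 0.07). For Fhl2 it was -0.12 ± 0.06. GC centring turned the sign for Fhl3, to -0.014. The difference was past 1.1-fold and positive for 7 members, beside 23.8% of all genes, and past it and negative for 0, beside 21.5%. Fhl1 and Pdlim4 were lower past 1.1-fold on the stiffer matrix in control and higher in Srf-knockdown NPCs, as were 3.52% of all genes. The median difference was 0.25 for the 9 members, 0.21 for the 26 other LIM-domain genes described below and 0.0029 for all genes. The same 4 libraries enter this difference and the knockdown ratios, so a knockdown ratio nearer to 0 at 12 kPa than at 0.5 kPa is the same measurement and not a further result.

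**Figure D4:**
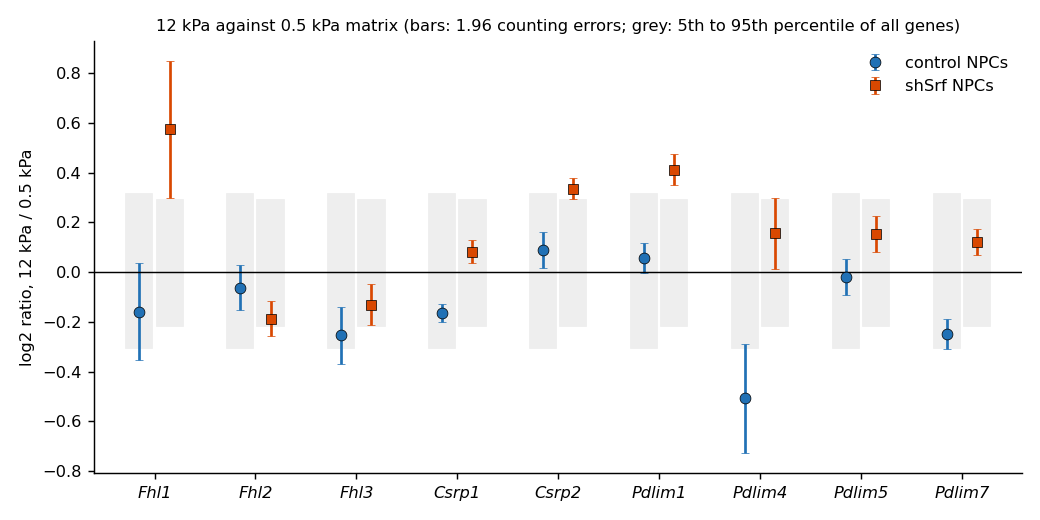
Stiffness ratio (log2, 12 over 0.5 kPa) of the 9 members above the minimum, with circles for control and squares for Srf-knockdown NPCs. Bars are 1.96 counting errors and grey boxes span the 5th to 95th percentile of all genes (-0.30 to 0.32 and -0.22 to 0.29). Squares lie above circles for all genes but Fhl2.

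The genes outside these families with the most similar profile were found by the Euclidean distance between log2 FPKM over the 4 libraries, each centred on its own mean. With only 4 libraries, and mostly 1 contrast among them, the distance is a description. The nearest profile to Fhl1 was that of the endothelin receptor gene Ednra (FPKM 16.3, 14.6, 3.68 and 5.04 in control and then Srf-knockdown NPCs on 0.5 and 12 kPa, distance 0.120), followed by Sfmbt2 and Gpx7. To Csrp1 the nearest were the lysyl oxidase gene Loxl2 (78.5, 70.9, 22.4 and 22.9, distance 0.0997), Ass1 and Gm14698. Csrp2 was nearest to Sh2d3c, Trappc6a and Olfm1 (distances 0.0525 to 0.0571). Pdlim1 was nearest to Pcdh10, Pigk and Ogdhl, Pdlim5 to Agpat4, Samd4 and Rasa3, and Pdlim7 to Mtor, Tigar and Dusp16. Pdlim4 was nearest to Twistnb, Sbk1 and Hexim2. Their like dip in control NPCs on 12 kPa follows from the choice by distance. For Fhl2 these were Ptcd2, Commd8 and Guf1, and for Fhl3 P2rx5, Cux1 and Vti1a, but these members ranged over only 0.35 and 0.25 log2 units, where many genes are close.

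Of 40 other LIM-domain genes, chosen by their protein domains, 26 were above the minimum. At 0.5 kPa 19 of the 26 were lower in Srf-knockdown NPCs past 1.1-fold and 4 were higher, and at 12 kPa 14 were lower and 8 higher. The median log2 ratio was -0.37 at 0.5 kPa and -0.17 at 12 kPa, nearer to 0 than that of the 9 members. The shares of all genes are those given for the members. Past 2-fold, 4 were lower at 0.5 kPa (Lpp, Tgfb1i1, Crip1 and Crip2), 2 at 12 kPa (Lpp and Tgfb1i1) and 1, Prickle3, was higher at both. The lowest mean ratios were those of Tgfb1i1, a paxillin paralog also called Hic-5 (FPKM 113 and 109 in control, 36.6 and 42.4 in knockdown cells), of the zyxin paralog Lpp (16.9 and 15.7, 6.77 and 6.85) and of Crip1, a small LIM protein (228 and 174, 96.6 and 108). Tgfb1i1 and Lpp thus had knockdown levels below those of both control libraries, as did Crip1. The highest were those of Prickle3 of the planar polarity pathway (2.86 and 2.90, 6.80 and 7.11), of Limk2, a kinase that phosphorylates cofilin (33.2 and 26.6, 49.5 and 51.9), and of the zyxin-family gene Trip6 (35.0 and 40.5, 53.4 and 59.3). With stiffness, 10 of the 26 were lower and 4 higher past 1.1-fold in control cells, and 0 were lower and 12 higher in knockdown cells. The difference between the populations was past 1.1-fold and positive for 15 of them, and negative for 0.

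Of the other genes of the same families, Pdlim2 alone was above the minimum. Ldb3, a Z-disc protein and relative of Pdlim5 and Pdlim7 with the CArG box described above, had 3.29 and 3.38 in control and 0.474 and 0.454 in Srf-knockdown NPCs, log2 ratios of -2.80 ± 0.16 and -2.90 ± 0.15. This is lower relative to control than in any of the 9 members, but Ldb3 was under the minimum in the knockdown libraries. Pdlim2 had 202.7 and 189.7 in control and 157.2 and 172.2 in knockdown cells, with log2 ratios of -0.37 ± 0.03 and -0.14 ± 0.03. Its FPKM was below that of Pdlim7 in control cells on 0.5 kPa and above it in knockdown cells on both matrices. In control cells on 12 kPa Pdlim2 and Pdlim7 were not clearly separated (189.7 and 193.9). Fhl4, below the minimum in all libraries, went the other way, with 0.773 and 0.899 in control and 1.60 and 1.52 in knockdown cells. Its log2 ratios were 1.05 ± 0.22 and 0.76 ± 0.22, on an estimated 53.6 to 234 reads. Fhl5 (0.137 to 0.221) was below the minimum in all libraries too, and Csrp3, the muscle LIM protein, reached at most 0.0712.

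**Figure D5:**
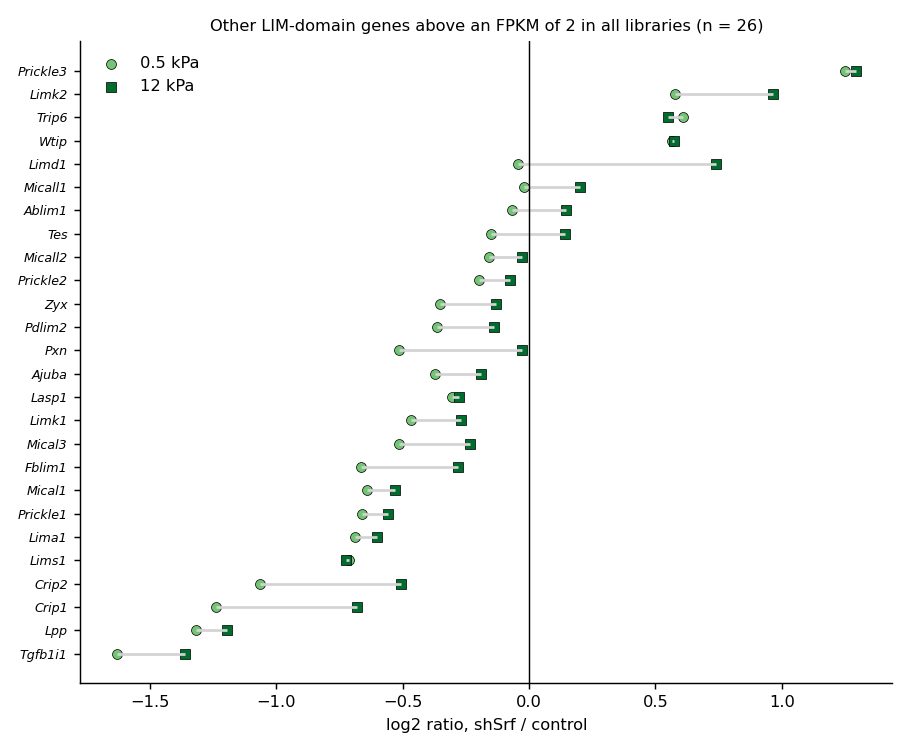
Knockdown ratio (log2, Srf-knockdown over control NPCs) of the 26 other LIM-domain genes above the minimum, with a circle for 0.5 kPa and a square for 12 kPa joined by a line. Tgfb1i1 and Lpp lie lowest and Prickle3 highest on both matrices.

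Binding partners of these proteins were read in the same libraries. Actn1, a non-muscle α-actinin, stood at 210 and 184 in control and at 106 and 112 in knockdown cells, log2 ratios of -0.99 ± 0.02 and -0.71 ± 0.02. Its non-muscle paralog Actn4 was higher in every library, with 281 and 273 in control and 222 and 221 in knockdown cells, and had log2 ratios nearer to 0, -0.34 ± 0.03 and -0.30 ± 0.03. Palld, which encodes the actin scaffold palladin, had -0.83 ± 0.03 and -0.51 ± 0.03. The integrin β1 gene Itgb1 had -0.85 ± 0.02 and -0.88 ± 0.02, and Itga7 had -0.38 ± 0.07 and -0.0023 ± 0.07. The muscle α-actinins Actn2 (0.366 to 0.997) and Actn3 (0.842 to 4.61) were not above the minimum in all libraries. Gapdh, taken as an unrelated gene, had log2 ratios of 0.11 at both stiffnesses.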

How the data were processed

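RNA-seq libraries (TruSeq Stranded mRNA, single-end) of N31 NPCs were made by the authors, 1 for each condition. Reads were trimmed with cutadapt 1.9.1, mapped to mm10 with TopHat2 2.1.0, Bowtie2 2.2.8 and the GENCODE M14 annotation, and selected for mapping quality, and the deposited values are FPKM per gene from Cufflinks 2.2.1, used here without rescaling. From 21997 rows, 63 symbols listed more than once (135 rows) were left out. Log2 ratios were taken without a pseudocount. Depth was estimated from low values, of which 48.1% (of 1101 genes under an FPKM of 0.1 in at least 3 libraries) lay on whole-read steps within 2%, and reads per gene used transcript lengths of GENCODE M1, so counting errors are approximate for genes with several transcripts. With 1 library per condition no test was made. Members and gene lists were chosen with earlier results of these data known. All members were named, with the direct relatives, the 3 largest rises and falls by mean knockdown ratio of the other LIM-domain genes, and the 3 nearest profiles. Alternatives covered pseudocount, scaling, GC content, minimum and fold threshold. Promoter sequences and coordinates were RefSeq on GRCm38.p6, and proteins were not analysed here. Calculations were tested on simulated data. Python 3.11.15, numpy 2.4.6, pandas 2.3.3 and matplotlib 3.10.9 were used.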

Additional observations from a re-analysis of the deposited data

Results flagged for a closer look

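Fhl1, Pdlim3 and Pdlim4 had log2 ratios of 12 to 0.5 kPa with opposite signs in the control and Srf-knockdown NPCs, and past 1.1-fold in both. For Fhl1 the ratio was -0.16 without the hairpin and 0.57 with it, and the former was within 1.96 counting errors of 0. Pdlim4 had -0.51 without it and 0.16 with it, and the latter was 0.07, within 1.1-fold, after centring on genes of like GC content. Pdlim3 had -1.07 and 0.44, on at most 37.3 estimated reads in a library, and both were within 1.96 counting errors of 0. With 1 library for each condition these differences were not tested.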

How the results depend on the processing

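No paired analysis was possible because the study has 1 library per group, and for the same reason no library could be left out. Of 200 recomputed member ratios 185 moved by less than the counting interval, 15 moved by more and 0 turned the sign of a called value. A pseudocount of 1 moved the ratio of Fhl1 at 0.5 kPa to -1.98, and centring within 50 bins of GC content moved 14. Among these, the knockdown ratios of Pdlim7 became -1.07 and -0.85 and those of Pdlim5 -0.83 and -0.55, so that past 2-fold at 0.5 kPa Pdlim7 took the place of Pdlim5, and the cause was not tested. After GC centring the knockdown ratios of Pdlim4 were -0.24 at 0.5 kPa and 0.33 at 12 kPa. Past 1.1-fold, 8 members were then lower in the knockdown ratio at 0.5 kPa and 7 at 12 kPa. Centring on the median moved no member ratio by more than the counting interval. Counts depended on the fold threshold. The share of all genes was counted only for the ratios as reported, past 1.1-fold and, in the knockdown ratios, past 2-fold. The other counts in this section have no such share beside them and show only how they depend on the setting. At 1.2-fold, 1.5-fold and 2-fold, 1, 0 and 0 members were lower on the stiffer matrix in control NPCs, 3, 0 and 0 were higher in Srf-knockdown NPCs, and 0 were lower there. Under scaling to the 75th percentile and under GC centring, 2 members were lower there. In the knockdown ratios at 0.5 kPa 0 members were higher past 1.5-fold and 0 past 2-fold, and at 12 kPa 1 and 0 were higher and 2 were lower past 2-fold. Of the other LIM-domain genes 6, 0 and 0 were lower and 0, 0 and 0 higher with stiffness in control NPCs at 1.2-fold, 1.5-fold and 2-fold, and 5, 0 and 0 were higher in Srf-knockdown NPCs. At 1.5-fold and 2-fold 9 and 4 were lower and 2 and 1 higher in the knockdown ratio at 0.5 kPa, and 5 and 2 lower and 3 and 1 higher at 12 kPa, where 5 were higher past 1.2-fold. Without a minimum and with a pseudocount of 1, 1 of them was lower with stiffness in Srf-knockdown NPCs and 8 were higher in the knockdown ratio at 0.5 kPa. Depth limits Pdlim3, Fhl5 and Csrp3, which rest on few reads.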
